A study of Mus musculus with 8 samples.

Results

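Genes of the proteasome were followed in mouse embryos. The members were all genes whose symbol is Psm, then a letter from a to g, then a number, and 51 of the 24921 genes of the table met that rule. They comprise 7 alpha-ring and 7 beta-ring genes of the core particle, 4 genes of immune-type and thymus-type beta subunits, 1 testis-type alpha gene, 9 genes of the base and 8 of the lid of the regulatory particle, 3 base chaperones, 5 activator genes, 1 inhibitor and 4 core chaperones. The other 2, Psmc3ip and Psme3ip1, match by name only: Psmc3ip encodes a meiotic recombination factor and Psme3ip1 a protein that binds Psme3. RNA came from embryos of the strain C57BL/6, given as passage 1, and was turned into libraries by Smart-seq, a method that copies whole transcripts of very few cells into cDNA and amplifies it. There were 8 libraries in 4 groups of 2, named CX22, CX45, 2C and 8C. The last 2 were taken to be embryos at the 2-cell and 8-cell stage, while CX22 and CX45 are not spelled out in the labels and no group is named as a control, so all 6 pairs of groups were compared. The labels give no age, treatment or genotype beyond this, and do not say how many embryos were pooled for a library.

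The proteasome is the main protease of the cytosol and nucleus and degrades proteins tagged with ubiquitin. Its core is a barrel of alpha and beta rings whose proteolytic sites face inward, and the regulatory particle on its ends binds ubiquitin, removes it and threads the substrate in with a ring of ATPases. Other caps, the activators, open the barrel without ubiquitin, and dedicated chaperones put the core and the base together. In oocytes and early embryos proteasomes clear maternal proteins as the embryo's own genome takes over.

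Promoters of 4 members are shown because their transcripts carry the main contrast between stages: Psmb5 and Psmb6 encode proteolytic sites of the core, Psma3 a subunit of its alpha ring, and Psme4 an activator whose transcript was lower in 8C than in 2C. The sequences are from RefSeq on GRCm38.p6, from 250 bases before to 50 bases after the annotated start, 5′ to 3′ on the gene's strand. Psmb5 lies at chr14:54617946-54618245 on the minus strand, Psmb6 at chr11:70525107-70525406, Psma3 at chr12:70974373-70974672 and Psme4 at chr11:30771525-30771824, the last 3 on the plus strand. Capitals mark matches, on either strand, to TGACNNNGC (the core letters of the antioxidant response element), CCAAT or GCGC followed by any 2 bases and another GCGC (written here as the GCGC pair).
Psmb5: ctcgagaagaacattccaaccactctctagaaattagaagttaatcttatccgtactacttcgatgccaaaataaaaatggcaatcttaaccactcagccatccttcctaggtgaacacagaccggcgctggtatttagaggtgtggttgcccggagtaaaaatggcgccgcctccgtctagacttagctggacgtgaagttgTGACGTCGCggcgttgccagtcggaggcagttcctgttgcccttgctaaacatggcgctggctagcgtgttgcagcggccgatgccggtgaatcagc
Psmb6: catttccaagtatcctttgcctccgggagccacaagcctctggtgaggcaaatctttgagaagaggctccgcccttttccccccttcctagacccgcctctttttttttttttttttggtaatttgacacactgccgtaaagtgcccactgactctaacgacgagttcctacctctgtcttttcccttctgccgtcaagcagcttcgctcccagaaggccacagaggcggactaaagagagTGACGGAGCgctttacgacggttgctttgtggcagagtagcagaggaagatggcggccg
Psma3: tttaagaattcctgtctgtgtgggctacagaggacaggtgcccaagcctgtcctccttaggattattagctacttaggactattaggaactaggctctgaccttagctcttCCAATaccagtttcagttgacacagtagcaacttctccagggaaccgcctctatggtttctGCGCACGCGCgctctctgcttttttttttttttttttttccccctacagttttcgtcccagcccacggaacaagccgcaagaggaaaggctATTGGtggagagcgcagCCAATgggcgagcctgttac
Psme4: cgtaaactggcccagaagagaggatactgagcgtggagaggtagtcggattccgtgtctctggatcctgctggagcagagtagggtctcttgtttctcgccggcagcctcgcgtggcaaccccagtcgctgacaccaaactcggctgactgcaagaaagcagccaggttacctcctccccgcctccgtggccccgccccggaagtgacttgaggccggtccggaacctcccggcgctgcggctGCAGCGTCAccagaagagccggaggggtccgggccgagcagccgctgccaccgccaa
Psmb5 and Psmb6 hold TGACNNNGC with its first base at -47 and -9 from the start. Psme4 holds it on the other strand at -7. Psma3 holds CCAAT letters at -139, 14 and 31 and the GCGC pair at -78. No marked matches overlapped. In all, 43 of the 51 members had a promoter in the table, with 47 promoters between them. TGACNNNGC stood in 6 of these (12.8%, against 12.4% of all 32851 promoters of the same length), in Psmb5, Psmb6, Psmc6, Psmd12, Psmd9 and Psme4, so both a risen core gene and a fallen activator gene carried it. CCAAT stood in 16 (34.0%, against 37.4%) and the GCGC pair in 7 (14.9%, against 6.23%), the latter in Psma2, Psma3, Psma4, Psmc4, Psmc5, Psmd14 and Psmg1. A match of letters is a description of the sequence and no evidence of binding.

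Levels are in FPKM: the fragments on a transcript per kilobase of its length, relative to all mapped fragments in that library. They can be compared between genes, but are shares of a library and not amounts per embryo. In whole-embryo RNA, fewer cells that carry a transcript and less of it per cell cannot be told apart. Low values rise in steps of 1 fragment, which put the depth at 9.72 to 20.24 M fragments (M, 1e6). The 8C libraries were the deepest, at 17.82 and 20.24 M. On a 2 kb transcript 3 fragments gave 0.074 to 0.154 FPKM, a floor for counting error alone. The 2C libraries differed by little more than sampling noise: the chi-square of the median gene was 1.22 times its chance median, while it was 31.52 times for the pair in 8C, 53.29 times for CX45 and 158.06 times for CX22. They were counted as 1 sample in the tests. Levels are given as the values of the single libraries, replicate 1 first (n = 2 in each group). The labels do not say that the libraries of a group came from separate embryos, so a p-value here speaks only to the spread of these libraries, which may be technical. A gene counts as risen or fallen where limma, adjusting over the 11873 genes tested, gave p under 0.05 with a difference of at least 1 in log2(FPKM + 1). Of the 51 members, 48 were tested, and Psma8, Psmb8 and Psmb11 were too low. The 6 oocyte and 2-cell genes Zscan4d, Zfp352, Gdf9, Bmp15, Zp3 and Oosp1 summed to 2755 and 2733 FPKM in 2C and to 2120 and 2723 FPKM in CX22. Their sum was 25.27 and 29.15 FPKM in 8C and 163.1 and 354.7 FPKM in CX45. Most of the 2C sum came from Oosp1 (1693 and 1700 FPKM) and Bmp15 (749.8 and 724.3 FPKM). Zscan4d, Zfp352 and Gdf9 were also lower in 8C than in 2C. Zp3 differed little, at 14.72 and 15.48 FPKM in 2C and 13.3 and 13.4 FPKM in 8C. In CX45 Zp3 was at 54.35 and 29.49 FPKM. Zfp352 was at 178.8 FPKM in CX45 replicate 2, above its 126.1 and 125.7 FPKM in 2C. Markers of cumulus cells summed to at most 6.731 FPKM and those of sperm to at most 42.89 FPKM, the latter in CX22.

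Between 2C and 8C most genes of the core and the regulatory particle rose, while 2 activator genes fell. Of the 48 members tested, 28 rose and 2 fell (16.3% of all genes tested rose and 20.7% fell). The rise took in 7 of 7 alpha-ring genes, 6 of 7 beta-ring genes, 6 of 9 base genes and 6 of 8 lid genes. Median log2 differences were 3.13, 3.20, 3.13 and 3.17 for these parts, against -0.18 for all genes, each over genes with a value in both groups. Together the members took 0.35% and 0.413% of the summed FPKM of the 2C libraries and 2.05% and 2.13% of those of 8C.

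**Figure D1:**
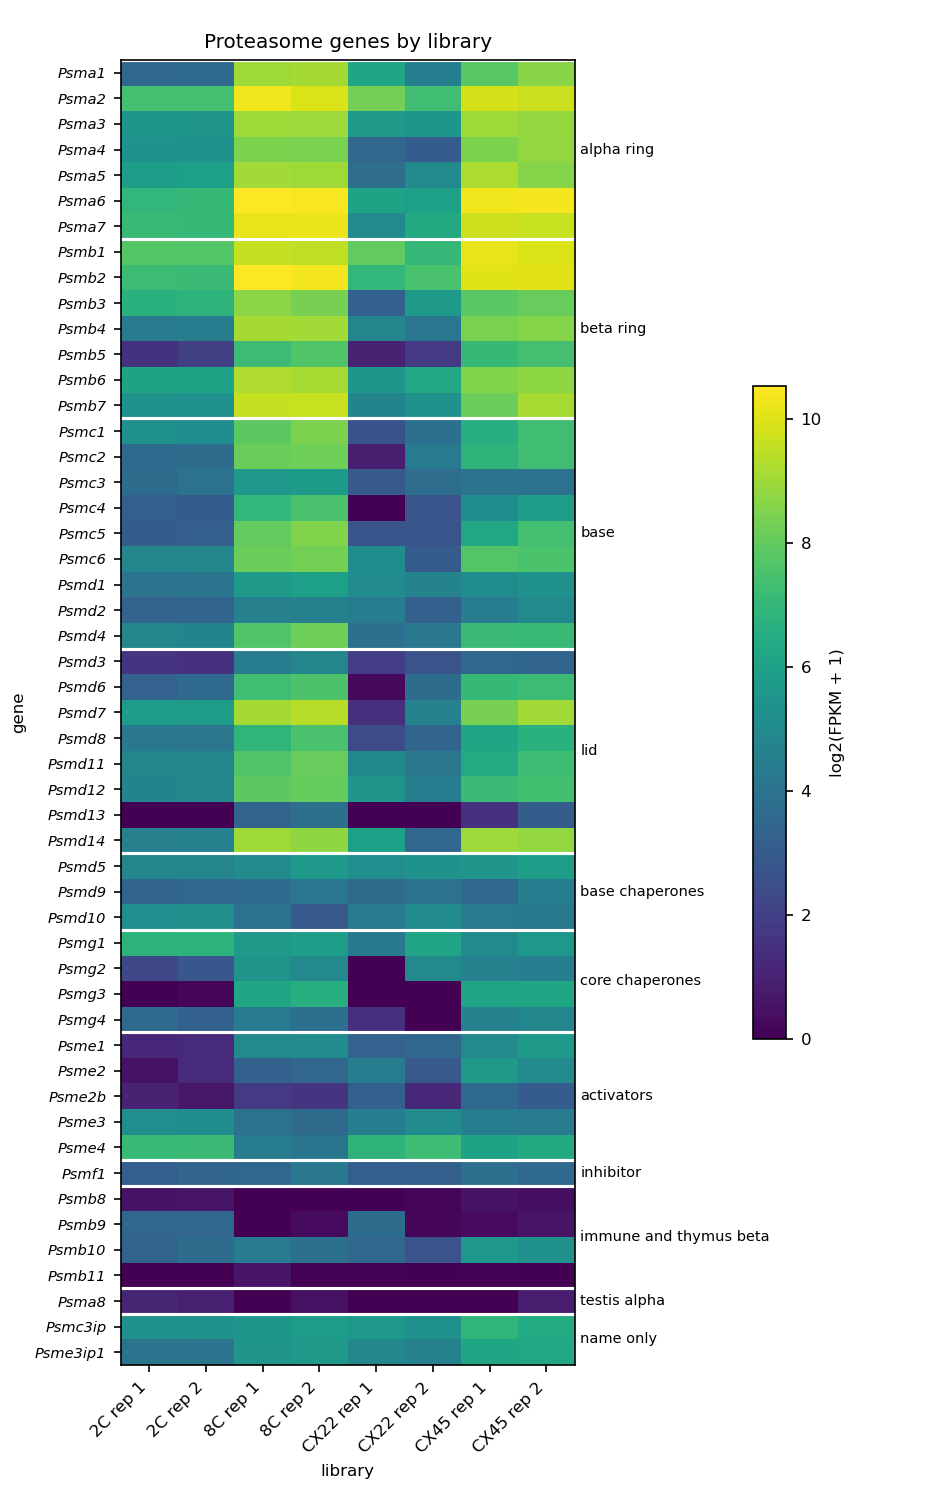
Levels of the proteasome members in the 8 libraries, as log2(FPKM + 1), with genes in rows ordered by part of the particle and libraries in columns. Most core and regulatory particle genes are high in 8C and CX45 and low in 2C and CX22. In CX45 Psmc3 is near its 2C level, and Psmd1 and Psmd2 in replicate 1 are near their level in CX22 replicate 1. Psme3 and Psme4 are highest in 2C or CX22.

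The proteolytic sites of the core are encoded by Psmb5 (chymotrypsin-like), Psmb6 (caspase-like) and Psmb7 (trypsin-like). Psmb5 (chromosome 14, 55232957 to 55236832 in mm9) stood at 1.91 and 2.949 FPKM in 2C and at 148.4 and 202.7 FPKM in 8C. Both 8C libraries were far above both 2C libraries, a 72.3-fold ratio of means (log2 difference 5.67, SE 0.46, limma adjusted p = 0.00266). Psmb5 was also the lowest of the 14 constitutive core genes in each of the 8 libraries. Its level was 0.0313 and 0.0461 times the core median in 2C and 0.0272 and 0.0517 times in CX22. It came nearer to the core median in 8C (0.256 and 0.365 times) and CX45 (0.295 and 0.372 times). Psmb6 went from 65.37 and 66.87 FPKM to 614.4 and 567.5 FPKM (log2 3.14, SE 0.36, adjusted p = 0.00545 by limma). Psmb7 went from 40.01 and 39.2 FPKM to 772.5 and 791.7 FPKM (log2 4.27, SE 0.51, adjusted p = 0.00585 by limma). The 3 proteolytic sites thus started at unequal levels and ended closer to each other.

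The members with the smallest p among those that rose were Psmg3, Psma3, Psma6, Psmb4, Psmb5 and Psmb2. Psma6, an alpha-ring gene, stood at 125.7 and 129.8 FPKM in 2C and at 1470 and 1361 FPKM in 8C (log2 3.46, SE 0.22, limma adjusted p = 0.00196). Psma3 stood at 44.53 and 42.58 FPKM and then at 523.8 and 499.7 FPKM (log2 3.52). For Psmb4, a beta-ring gene without a proteolytic site, the values were 19.37 and 20.67 FPKM in 2C and 546 and 528.8 FPKM in 8C (log2 4.68). Psmb2, another such gene, rose from 148.9 and 144.8 FPKM to 1443 and 1276 FPKM (log2 3.20). None of these genes had an 8C library near a 2C library. Among the core genes Psmb3 alone was not called, with 104.9 and 109.2 FPKM in 2C and 412 and 328.1 FPKM in 8C (limma adjusted p = 0.227). Its CX22 libraries, at 8.25 and 49.83 FPKM, enter the spread of the shared fit. With the CX22 group left out Psmb3 was called.

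In the regulatory particle the 6 ATPase genes Psmc1 to Psmc6 had a median level of 11.69 and 13.1 FPKM in the 2C libraries and 243.9 and 304.8 FPKM in 8C. Psmc5 showed the smallest p of them, with 7.688 and 8.168 FPKM in 2C and 257.1 and 365.1 FPKM in 8C (log2 5.11, SE 0.53, limma adjusted p = 0.00414). Psmc2 and Psmc4 had 8C libraries above 2C libraries by 4.53 and 4.10 on the log2 scale but did not pass (adjusted p = 0.0643 and 0.0544 by limma), and Psmc2 ranged from 0.8605 to 19.65 FPKM within CX22, a spread that enters the shared fit. Psmd4, a ubiquitin receptor of the base, rose from 28.2 and 25.92 FPKM to 201.6 and 295.1 FPKM. Psmd14, the deubiquitinase of the lid, rose from 23 and 23.94 FPKM to 521.9 and 432.3 FPKM (log2 4.28). Psmd13, a lid gene, was listed at 0 in both 2C libraries and both CX22 libraries, and at 9.776 and 13.85 FPKM in 8C and 1.857 and 7.711 FPKM in CX45. A listed 0 need not mean that the transcript was absent, because the table gives no read counts.

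Subunits of 1 particle were far from equal in transcript level. The highest of the 14 core genes was 111 and 70.7 times the lowest in the 2C libraries and 9.91 and 6.71 times in 8C. Among the 6 ATPase genes the range was narrower in 2C, at 4.91 and 4.48 times, than in 8C, at 6.02 and 7.0 times, and over all 9 base genes it was 12.6 and 15.2 times in 8C. The median core gene was 5.23 and 4.89 times the median ATPase gene in 2C and 2.38 and 1.82 times in 8C. These ratios are descriptions of single libraries and were not tested.

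**Figure D2:**
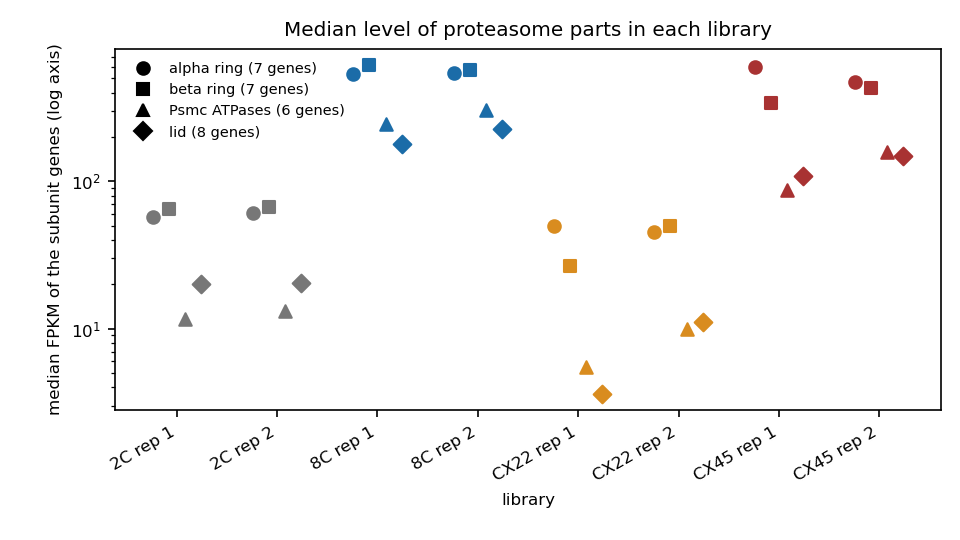
Median FPKM of the alpha ring, beta ring, Psmc ATPases and lid in the 8 libraries, on a log axis, with 1 point per part in each library. The median over all 14 core genes, which is not drawn, is 580.2 and 555.8 FPKM in 8C and 442.1 and 458.4 FPKM in CX45. It is 61.12 and 64.01 FPKM in 2C and 38.78 and 47.71 FPKM in CX22. The ATPases lie below both rings in each library.

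Among the 5 activator genes 2 fell, 1 rose and 2 were not called. Psme4 encodes a large single-chain activator of the nucleus that is known for the turnover of acetylated histones in the male germ line, and it stood at 138.4 and 142.7 FPKM in 2C and 20.71 and 16.04 FPKM in 8C. Both 8C libraries were below both 2C libraries, and the fall of 2.88 on the log2 scale (SE 0.33, limma adjusted p = 0.00538) took Psme4 from 2.26 and 2.23 times the core median to 0.0357 and 0.0289 times. Psme3, which forms a nuclear activator ring by itself, was at 35.07 and 33.95 FPKM and then at 14.16 and 11.53 FPKM (log2 -1.37, SE 0.36, adjusted p = 0.0432 by limma). That call is close to the threshold and was lost when an 8C or a CX45 library was left out, with no filter on low values, under quantile or median scaling and with a replicate block (adjusted p 0.00566 to 0.165 over the alternatives). Psme1 and Psme2 form the ring that interferon induces. Psme1 rose from 1.277 and 1.434 FPKM to 30.08 and 33.2 FPKM (log2 3.79, SE 0.42, adjusted p = 0.00503 by limma). Psme2 stood at 0.4175 and 1.367 FPKM in 2C and 8.561 and 9.977 FPKM in 8C and did not pass (limma adjusted p = 0.0565), and its near-copy Psme2b stayed at or under 2.424 FPKM, a level that is uncertain because fragments can be split between copies.

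Of the 7 chaperone genes 1 was called. Of the 4 core chaperones only Psmg3 was called. It was listed at 0 and 0.09928 FPKM in 2C and at 73.73 and 98.06 FPKM in 8C (log2 6.36, SE 0.36, limma adjusted p = 0.00194). Its partner in the alpha-ring scaffold, Psmg4, was at 11.19 and 8.514 FPKM in 2C and at 18.99 and 13.51 FPKM in 8C. Psmg1 stood at 111 and 111.6 FPKM in 2C, above its 48.79 and 58.64 FPKM in 8C, while Psmg2, with which it forms a dimer, stood at 3.928 and 6.174 FPKM and then at 42.28 and 29.65 FPKM. Neither passed limma (adjusted p = 0.366 and 0.358). No base chaperone gene was called, and Psmd5 (26.57 and 26.34 FPKM in 2C, 32.28 and 47.53 in 8C), Psmd9 (9.601 and 10.6, then 11.77 and 16.36) and Psmd10 (35.13 and 36.26, then 14.07 and 6.602) lay partly higher and partly lower in 8C. The inhibitor Psmf1 stood at 7.948 and 9.689 FPKM in 2C and 10.77 and 17.76 FPKM in 8C.

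**Figure D3:**
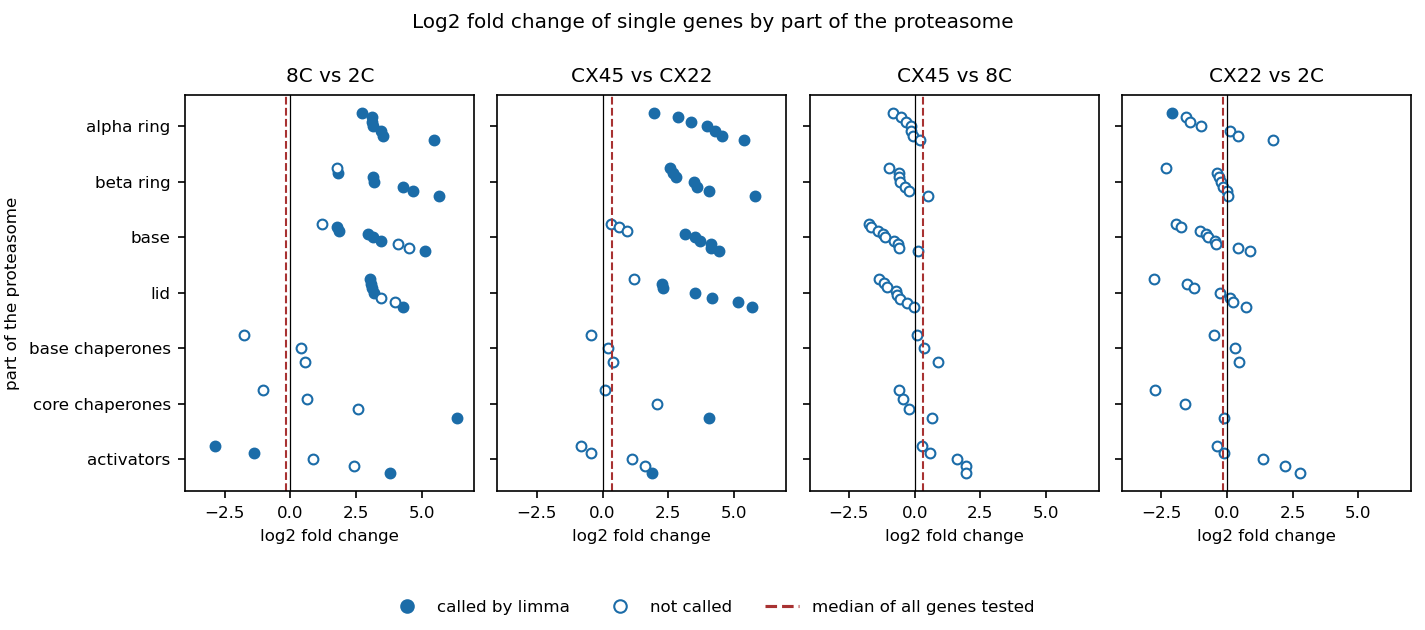
Log2 differences of the members in 4 comparisons, on the log2(FPKM + 1) scale, by part of the proteasome, with 1 point per gene (filled where limma called it), a dashed line at the median of all genes, and genes listed at 0 in a whole group left out. In 8C against 2C the alpha ring, beta ring, base and lid have medians of 3.13, 3.20, 3.13 and 3.17, and in CX45 against 8C they have medians of -0.14, -0.55, -1.11 and -0.70.

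Without 8C replicate 1 or 8C replicate 2 the number of members called in 8C against 2C was 13 in place of 30, and it was 38 without either CX22 library or without both. The 13 that kept their call under each alternative were Psma3, Psma4, Psma6, Psmb2, Psmb4, Psmb5, Psmb6, Psmb7, Psmc5, Psmd4, Psme1, Psme4 and Psmg3. Median scaling moved the median of all genes, here with those at 0 in a group, from -0.04 to 0.26 and the share of risen genes among all calls from 44.1% to 54.6%.

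Of 30 listed partners that act around the proteasome, 29 were in the table and 27 were tested. Of these 9 rose (33.3%, against 16.3% of all genes) and 5 fell (18.5%, against 20.7%), so the share that fell was near that of all genes. Ufd1, a cofactor of the unfoldase Vcp, stood at 1.731 and 1.699 FPKM in 2C and at 74.7 and 90.64 FPKM in 8C (log2 4.94). Adrm1, a ubiquitin receptor, rose from 1.164 and 1.198 FPKM to 126.7 and 255.4 FPKM (log2 6.37, SE 0.76, limma adjusted p = 0.00574). Sem1, a small lid subunit, rose from 116.7 and 107.5 FPKM to 1479 and 1038 FPKM (log2 3.45). Rps27a, which encodes ubiquitin fused to a ribosomal protein, rose by 4.49 on the log2 scale. Vcp, Pomp (the maturation factor of the core), Uchl5 and Usp14 (deubiquitinases bound to the particle) also rose.

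The 5 partners that fell were Akirin2, Ipo9, Ngly1, Ecpas and Ubqln1. Akirin2, which guides proteasomes into the nucleus, was at 157.4 and 151.9 FPKM in 2C and at 30.48 and 24.95 FPKM in 8C (log2 -2.45, SE 0.28, limma adjusted p = 0.00526). Ipo9, an import receptor of the same route, fell by 1.99 on the log2 scale. Ngly1, the glycanase that processes the transcription factor Nfe2l1, went from 43.06 and 42.72 FPKM to 0.8178 and 0.5754 FPKM (log2 -4.70). Ecpas, an adaptor of the particle, fell by 2.79, and Ubqln1, a shuttle for ubiquitin-tagged proteins, fell by 1.49. Nfe2l1 itself, known to drive proteasome genes when proteasome activity is low, was not called (log2 -0.43, adjusted p = 0.543 by limma).

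CX22 against 2C gave 1 called member, Psma4 (0.598% of all genes tested rose and 3.29% fell). Psma4, an alpha-ring gene, was at 40.61 and 37.92 FPKM in 2C and at 9.98 and 7.235 FPKM in CX22 (log2 -2.08, SE 0.31, limma adjusted p = 0.0401). The other 6 alpha-ring genes and all 7 beta-ring, 9 base and 8 lid genes were not called. Part medians, over genes with a value in both groups, were -0.98 in the alpha ring and -0.70 in the base. They were -0.26 in the lid and -0.22 in the beta ring, near the -0.14 of all genes. At an unadjusted p under 0.05, 3 members were higher and 4 lower (5.1% and 11.1% of all genes). The Psma4 call was lost without either 8C or either CX45 library, with a filter on the mean, under median scaling, with a replicate block and without a trend (adjusted p 0.00342 to 0.164 over the alternatives).

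Some activator genes had CX22 libraries above those of 2C. Psme1 was at 8.893 and 10.82 FPKM in CX22 against 1.277 and 1.434 FPKM in 2C (limma adjusted p = 0.0772), and Psme2 at 20.72 and 6.737 FPKM against 0.4175 and 1.367 FPKM (log2 2.78, limma adjusted p = 0.15). Both CX22 libraries lay above both 2C libraries, but neither gene passed. Psme4 stood at 113.9 and 150 FPKM in CX22, on either side of its 2C values. Psmg3 was listed at 0 in both CX22 libraries, Psmg4 at 1.711 FPKM and 0, and Psmg2 at 0 and 30.97 FPKM.

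In the CX22 pair more members were far apart than in any other pair of libraries of 1 group. Of 46 tested members of a proteasome part, 19 (41.3%) differed by at least 1 on the log2 scale between them, near the 38.5% of all genes. In CX45 2 did so (4.35%, against 21.2% of all genes). In 2C and 8C 0 did so (against 0.345% and 8.08% of all genes). Psmc4 was listed at 0 and at 5.925 FPKM, Psmd6 at 0.1577 and 12.05 FPKM, and Psmd7 at 1.661 and 23.9 FPKM, the first value in each case from CX22 replicate 1. Not all genes were lower in that library: Psma1 (71.51 and 22.12 FPKM) and Psmd14 (62.55 and 10.18 FPKM) were higher in it. Leaving out CX22 replicate 1 gave 4 calls against 2C and leaving out CX22 replicate 2 gave 7.

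CX45 against 8C had 0 called members by limma (0.463% of all genes tested rose and 0.202% fell). At an unadjusted p under 0.05, 5 members were higher and 4 lower (15.0% and 4.28% of all genes). Taken one library at a time, 26 of the 48 members had both CX45 libraries below both 8C libraries (16.5% of all genes) and 11 had both above (40.4% of all genes). The genes below included 6 of 6 ATPase genes, 15 of 17 regulatory particle genes and 9 of 14 core genes. Those above included 4 of 5 activators.

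The parts stood at different levels in CX45 relative to 8C. The ratio of the CX45 mean to the 8C mean had a median of 0.906 over the alpha ring, 0.686 over the beta ring, 0.611 over the lid and 0.415 over the 6 ATPase genes, which ranged from 0.303 to 0.646. Psmc3 was at 47.89 and 52.16 FPKM in 8C and at 15.54 and 14.79 FPKM in CX45, close to its 12.36 and 14.09 FPKM in 2C (log2 -1.66, SE 0.34, limma adjusted p = 0.103 against 8C). Psmc5 was at 257.1 and 365.1 FPKM in 8C and at 79.14 and 167.2 FPKM in CX45 (log2 -1.40, adjusted p = 0.187 by limma). The median core gene was 5.03 and 2.92 times the median ATPase gene in CX45, against 2.38 and 1.82 times in 8C. The difference between parts was not tested.

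Activators and 1 immune-type subunit were higher in CX45 without passing the test. Psme4 stood at 65.45 and 82.72 FPKM in CX45 against 20.71 and 16.04 FPKM in 8C (log2 1.96, SE 0.27, limma adjusted p = 0.064). Psme2 was at 49.26 and 30.99 FPKM against 8.561 and 9.977 FPKM (log2 1.97, SE 0.59, adjusted p = 0.183 by limma), and Psme2b at 11.1 and 7.269 FPKM against 2.424 and 2.089 FPKM. Psme3 was at 20.16 and 19.01 FPKM against 14.16 and 11.53 FPKM, and Psme1, at 29.71 and 49.75 FPKM, overlapped its 8C values. Psmb10, the immune-type counterpart of Psmb7, was at 47.72 and 38.33 FPKM against 19.7 and 13.78 FPKM (log2 1.32, limma adjusted p = 0.19). With the 2C libraries as separate samples, Psme4 and Psmc3 passed against 8C (limma adjusted p = 0.0112 and 0.028). That setting counts 2 libraries that differ by little more than sampling noise as separate samples. It took the calls over all genes in CX45 against 8C from 79 to 1037.

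The CX45 values of all genes were higher than those of 8C by a median of 0.31 on the log2 scale. Scaling each library to its median brought that to -0.06 and took the members' median from -0.31 to -0.99. Under it the 6 ATPase genes stayed below 8C and Psme4 (1.30), Psme2 (1.33) and Psme2b (1.08) stayed above, while Psme1 and Psme3 turned to -0.39 and -0.06 and the core genes Psma4 and Psmb1 to -0.48 and -0.16. Quantile scaling, which brought the median of all genes to 0, kept the 6 ATPase genes below 8C. Psme4 (1.58), Psme2 (1.48) and Psme2b (1.11) stayed above under it, while Psme3 and Psme1 were left at 0.16 and 0.01. Among core and regulatory particle genes Psma3, Psma5, Psma6 and Psmd14 turned to 0.05, 0.01, 0.12 and 0.09. Psmd2 turned from 0.13 to -0.18 with quantile scaling and to -0.53 with median scaling. Under either scaling 0 of all genes tested were called. The oocyte and 2-cell genes given above were also higher in CX45 than in 8C, and 8C libraries were deeper. A list of 6 later cleavage genes, among them Nanog, Pou5f1 and Dppa2, summed to 1310 and 1654 FPKM in 8C and to 930.4 and 1219 FPKM in CX45, where Pou5f1 was listed at 0 in replicate 1. It summed to 55.59 to 73.5 FPKM in the 2C and CX22 libraries, so the sum was high and low in the libraries in which the core genes were. Most of the sum came from Dppa2 and Dppa4, at 635 and 596.2 FPKM in 8C replicate 1. Pou5f1 did not follow it, with 0 and 2.16 FPKM in CX45 and 0 and 2.32 FPKM in CX22. Nanog was at 20.26 and 18.25 FPKM in 8C and at 6.528 and 4.541 FPKM in CX45. The part of depth and of both gene lists in the differences was not tested.

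**Figure D4:**
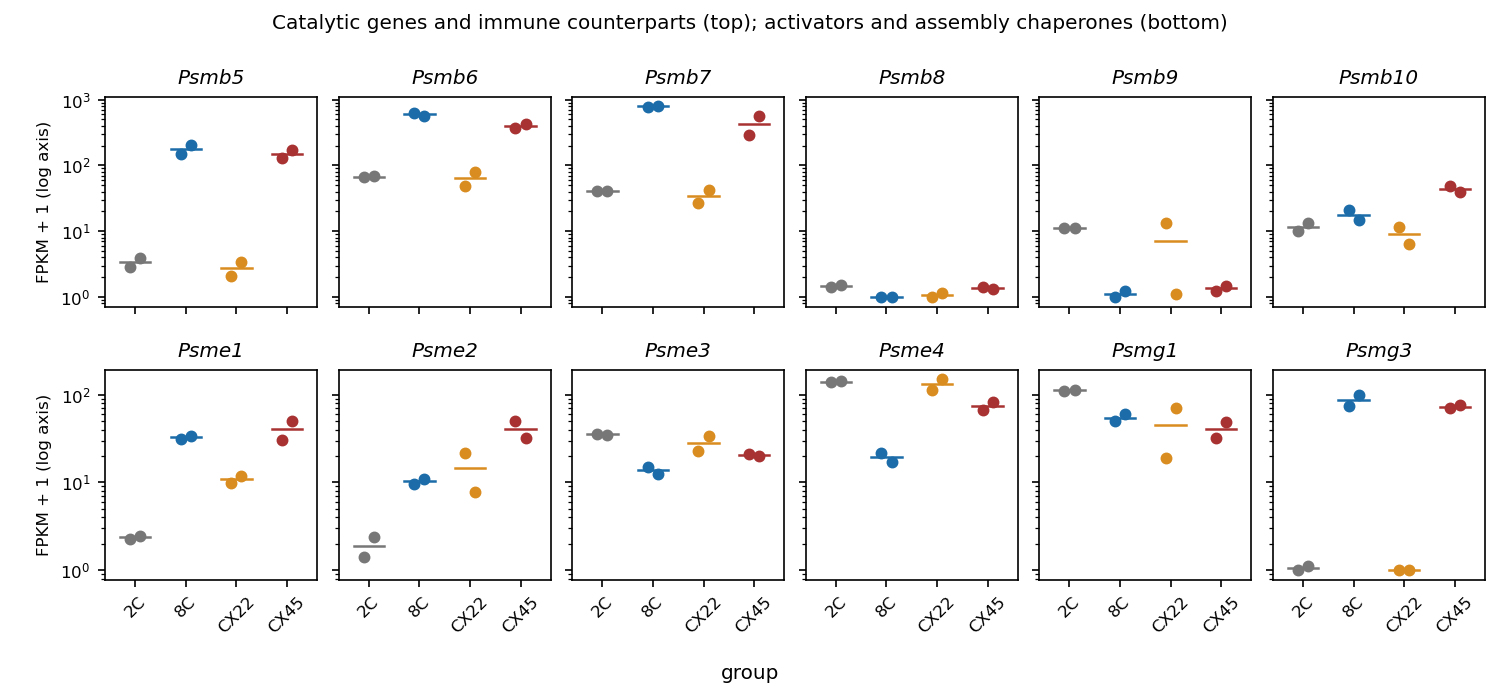
FPKM + 1, on a log axis, of the proteolytic beta subunits, their immune-type counterparts, 4 activators and 2 core chaperones in each library, with points for libraries and bars for group means. Psmb5, Psmb6 and Psmb7 are high in 8C and CX45, Psmb8 stays at or under 0.5092 FPKM, and Psme4 is highest in 2C and CX22, at 113.9 to 150 FPKM.

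CX45 against CX22 gave 33 risen and 0 fallen members (23.0% of all genes tested rose and 13.5% fell). The risen genes took in 7 of 7 alpha-ring, 7 of 7 beta-ring, 6 of 9 base and 7 of 8 lid genes, with medians of 3.97, 3.50, 3.51 and 3.53. The smallest p belonged to Psma6, Psma4, Psmg3, Psma3, Psmb5 and Psmb4. Psma6 stood at 67.38 and 61.23 FPKM in CX22 and at 1250 and 1314 FPKM in CX45 (log2 4.30, SE 0.18, limma adjusted p = 0.00325). Psma4 stood at 9.98 and 7.235 FPKM and then at 345.2 and 447.6 FPKM (log2 5.37, SE 0.25). Psmb5 stood at 1.056 and 2.466 FPKM and then at 130.4 and 170.3 FPKM (log2 5.81, SE 0.37). In each of these genes both CX45 libraries lay far above both CX22 libraries.

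Psmg3, Psmg4, Psmb10 and Psme1 also rose between CX22 and CX45. Psmg3, listed at 0 in both CX22 libraries, was at 69.79 and 74.78 FPKM in CX45. Psmg4 rose from 1.711 FPKM and 0 to 24.3 and 27.81 FPKM (log2 4.04, SE 0.57, limma adjusted p = 0.00937). Psmb10 rose from 10.62 and 5.464 FPKM to 47.72 and 38.33 FPKM (log2 2.34, adjusted p = 0.0146 by limma), and Psme1 from 8.893 and 10.82 FPKM to 29.71 and 49.75 FPKM (log2 1.87, adjusted p = 0.0169 by limma). The Psmg4 and Psmb10 calls were lost without either CX45 library, and that of Psme1 without either 8C library or without CX45 replicate 2. Psmc3, Psmd1, Psmd2 and Psmd3 were the base and lid genes without a call. Quantile scaling moved the share of risen genes among all calls from 63.1% to 49.0%. Leaving out either 8C library gave 20 calls and leaving out CX45 replicate 1 or 2 gave 19 and 16.

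CX45 against 2C gave 26 risen and 0 fallen members (16.2% of all genes tested rose and 13.6% fell). In the core 13 of 14 genes were called, all but Psmb3, while in the regulatory particle 7 of 17 were. Of the 6 ATPase genes only Psmc5 was called (7.688 and 8.168 FPKM in 2C, 79.14 and 167.2 FPKM in CX45, log2 3.70, SE 0.53, limma adjusted p = 0.012). All 17 regulatory particle genes had both CX45 libraries above both 2C libraries, as did 5614 of the 11873 genes tested. Median log2 differences were 3.15 in the core and 2.59 over the ATPase genes, against 0.14 for all genes. The 6 members with the smallest p, Psmg3, Psma3, Psma6, Psmb4, Psmb5 and Psma4, rose by between 3.29 and 6.12 on the log2 scale. Psme1 rose by 4.07 and Psme2 by 4.41, from 0.4175 and 1.367 FPKM to 49.26 and 30.99 FPKM (SE 0.73, limma adjusted p = 0.0165). Psmb10 rose from 9.171 and 12.14 FPKM to 47.72 and 38.33 FPKM (log2 1.91, adjusted p = 0.0474 by limma), a call that was lost under 9 alternatives: a pseudocount of 0.1, no filter on low values, quantile or median scaling, and without 2C replicate 1 or any one 8C or CX45 library (adjusted p 0.00667 to 0.153 over the alternatives). The Psme2 call was lost without any one 8C or CX45 library. Without 8C replicate 1 or 2 there were 12 calls, without CX45 replicate 1 or 2 there were 12 and 11, and without CX22 replicate 1 or 2 there were 38 and 39. With the CX22 group left out there were 39, with Psmb3, Psmc2, Psmc4 and Psmc6 among those gained, while Psmc1 and Psmc3 stayed without a call.

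CX22 against 8C gave 32 fallen members and 1 risen member (21.4% of all genes tested fell and 19.9% rose). All 14 core genes and 15 of 17 regulatory particle genes fell, with medians of -4.26 and -4.15. The smallest p belonged to Psma6, Psmg3, Psma4, Psma3, Psmb4 and Psmb5. Psmb5 fell by 6.03 on the log2 scale (148.4 and 202.7 FPKM in 8C, 1.056 and 2.466 FPKM in CX22), and Psmb4 by 4.62 (546 and 528.8 FPKM, then 26.61 and 16.45 FPKM). The risen member was Psme4, with 113.9 and 150 FPKM in CX22 and 20.71 and 16.04 FPKM in 8C (log2 2.78, SE 0.27, limma adjusted p = 0.00299). Without 8C replicate 1 or 2 there were 18 and 16 calls. The 6 comparisons share their libraries, so none of them is independent of the others.

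Immune-type, thymus-type and testis-type subunits other than Psmb10 (5.464 to 47.72 FPKM) stayed low in most libraries. Psmb8, the counterpart of Psmb5, was at or under 0.5092 FPKM throughout, Psmb11, the thymus subunit, at or under 0.5535 FPKM, and Psma8, the testis counterpart of Psma7, at or under 1.111 FPKM. Psmb9, the counterpart of Psmb6, stood at 10.01 and 10.24 FPKM in 2C and at 12.3 FPKM in CX22 replicate 1, but at 0.1025 FPKM in CX22 replicate 2, at 0 and 0.2446 FPKM in 8C and at 0.2251 and 0.4887 FPKM in CX45. Psmb9 was not called in any comparison as reported (limma adjusted p = 0.141 in 8C and 0.181 in CX45 against 2C). With the CX22 group left out it was called in both of these comparisons. Psmb10 and Psme2 were higher in both CX45 libraries than in all other libraries. Psme1 was highest in CX45 by mean only, with 29.71 FPKM in replicate 1 against 30.08 and 33.2 FPKM in 8C. The means of Psmb8 and Psmb9 were highest in 2C. Psme1 and Psme2 summed to 78.97 and 80.73 FPKM in CX45 against 38.64 and 43.18 FPKM in 8C. The 6 blood and immune markers summed to 301.9 and 359.9 FPKM in CX45, nearly all of it Hba-a1. In the other groups they summed to 110.5 and 110.6 FPKM (2C), 33.8 and 83.54 FPKM (CX22) and 12.01 and 32.01 FPKM (8C). Their part in the result was not tested. Of the defining immune markers, Ptprc and Cd3e were at or under 0.07009 and 0.1081 FPKM in all 8 libraries, Lyz2 reached 11.8 FPKM in CX22 and 9.613 FPKM in CX45, and Cd74 reached 6.008 FPKM in CX45. Hbb-bs was listed at 0 throughout.

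Partners in the remaining comparisons gave 0 called genes in CX22 against 2C and 0 in CX45 against 8C by limma, while unadjusted p under 0.05 gave 1 higher and 1 lower of 27 in the first (5.1% and 11.1% of all genes) and 3 higher and 0 lower in the second (15.0% and 4.28% of all genes), all under those shares. In CX45 against CX22, 12 rose (44.4%, against 23.0% of all genes) and 6 fell (22.2%, against 13.5%). Ufd1 showed the smallest p there, with 0.1557 and 0.1677 FPKM in CX22 and 63.55 and 88.11 FPKM in CX45 (log2 6.03, SE 0.30, limma adjusted p = 0.00325), and Sem1 rose by 3.43, Vcp by 3.80 and Rps27a by 2.68 on the log2 scale. Ngly1 fell by 4.41, from 27.13 and 43.45 FPKM to 1.193 and 0.2685 FPKM. CX45 against 2C gave 9 risen and 5 fallen partners (33.3% and 18.5%, against 16.2% and 13.6% of all genes). CX22 against 8C gave 7 risen and 11 fallen (25.9% and 40.7%, against 19.9% and 21.4%), with Ufd1 (log2 -6.16) and Sem1 (log2 -3.51) among the fallen and Akirin2 (log2 2.50) among the risen. Pomp, which the core needs to mature, stood at 882.6 and 663.6 FPKM in 8C and 695.7 and 566.8 FPKM in CX45. It was at 48.57 and 49.96 FPKM in 2C and at 133.6 and 59.94 FPKM in CX22, so the high and the low libraries were those of the core genes.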

How the data were processed

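The deposited table held the authors' FPKM, with a row for every RefSeq transcript at each of its loci and a column for every library. Per the submitters' processing notes, HISAT2 (listed with version 4.8.2), Cufflinks 2.2.1 and the build mm9 were used. Of the settings and annotation release, details were not given in the sources used here, and replicates were not pooled in the table. Of 41876 entries, 41685 matched a symbol of the RefSeq table of GRCm38.p6 and 191 did not (0.065% to 0.253% of the summed FPKM). FPKM were summed per gene, so 337 accessions listed at more than 1 locus, and genes with near-identical copies, are uncertain. The 51 members drew on 67 entries. Loci are in mm9, counted from 1, and promoters in GRCm38.p6. Depth was taken from the steps between low values, of which 73.3% to 79.5% came out whole in fragments (tolerance 0.1).

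Genes had to reach 1 FPKM in 2 or more of the 8 libraries, and log2(FPKM + 1) was fitted with limma 3.58.1 in R 4.3.3, all 4 groups together, with its variance moderation set to follow mean expression. The 2C libraries were averaged as 1 sample after the check for sampling noise (3622 genes), which left 7 samples, and the lone 2C sample is taken to have the spread of the remaining groups. Tests were two-sided, with Benjamini-Hochberg adjustment over all genes tested. The script was tested on simulated data with the same spread in all libraries, which does not cover the unequal spread of the groups here. Alternatives covered the pseudocount (0.1), filters, scaling, separate 2C libraries, a replicate block, moderation without a trend, entries at several loci and each library left out.

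The members, gene lists and tests were chosen with earlier results of these data known. Named genes were the proteolytic subunits, their immune-type, thymus-type and testis-type counterparts, the activators, inhibitor and chaperones, and in each comparison up to 6 called members per direction and up to 6 called partners with the smallest p. Other genes were named after their values were seen, and 1 item is not reported here. The partners were 30 genes of ubiquitin supply, shuttling, the segregase and regulation.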

Additional observations from a re-analysis of the deposited data

How the results depend on the processing

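Across the alternatives, 81 of 105 counts of called members stayed within 1.5 times the value reported, 24 moved, and no called member changed its direction. Of 5040 values of single members, 4638 kept their side of the threshold, 132 gained a call and 270 lost it. In CX22 against 2C the reported count of 1 became 0 with a filter on the mean (at least 1 FPKM), with median scaling, with a replicate block and without a trend, and 5 with separate 2C libraries. In CX45 against 8C the count of 0 became 2 with separate 2C libraries. Leaving out 1 library at a time gave 13 to 38 calls in 8C against 2C (30 reported), 0 to 7 in CX22 against 2C, 0 in CX45 against 8C, 16 to 35 in CX45 against CX22 (33 reported), 11 to 39 in CX45 against 2C (26 reported) and 16 to 36 in CX22 against 8C (33 reported). Leaving out an 8C, CX22 or CX45 library lowers the residual degrees of freedom from 3 to 2. Leaving out the CX22 group was chosen after seeing the data and gave 38, 39 and 0 calls in 8C against 2C, CX45 against 2C and CX45 against 8C. Over all genes tested the calls ranged from 0 to 1037 in CX45 against 8C (79 reported), from 60 to 1616 in CX22 against 2C (462 reported) and from 1417 to 6697 in 8C against 2C (4400 reported), the lowest of the second without a trend and the highest of the first 2 with separate 2C libraries. The cause was not tested.

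Deviations of same-numbered libraries from their group means correlated at -0.001 to 0.105 between groups, and with 2 numbers the libraries share only a number. With a replicate block the counts were 30 in 8C against 2C, 0 in CX22 against 2C, 0 in CX45 against 8C, 32 in CX45 against CX22, 23 in CX45 against 2C and 33 in CX22 against 8C. All calls rest on 2 libraries per group, and a gene near the value of 3 fragments cannot be told from 0 at this depth.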

Other observations

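Several members drew on more than 1 transcript entry, and the entries did not always move together. For Psma6 the entry that held 61.23 to 1470 FPKM in 7 libraries was listed at 0 in CX22 replicate 1, where the other entry of the gene held 67.38 FPKM and was listed at 0 everywhere else. Psma3 had an entry with 10.49 and 11.2 FPKM in 2C that was listed at 0 in the other 6 libraries, and Psmd10 had one with 10.41 and 10.04 FPKM in 2C and 0 elsewhere. For Psmg4 the entry with 7.371 and 4.833 FPKM in 2C and 17.85 and 17.86 FPKM in CX45 was listed at 0 in both CX22 libraries. The split between entries of a gene is the authors' estimate, and summed values per gene were used for all results.

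Outside the particle itself, Psme3ip1, whose protein binds the activator Psme3, stood at 73.5 and 75.34 FPKM in CX45, 43.35 and 48.57 FPKM in 8C, 28.58 and 23.32 FPKM in CX22, and 15.63 and 15.51 FPKM in 2C. Its libraries were highest in CX45, while those of Psme3 were highest in 2C. Psmc3ip stood at 118.2 and 85.82 FPKM in CX45, 45.03 and 56.03 FPKM in 8C, 47.43 and 38.33 FPKM in CX22, and 39.46 and 40.76 FPKM in 2C. It was called in CX45 against 2C (log2 1.31, limma adjusted p = 0.0454) and against CX22 (log2 1.22, limma adjusted p = 0.0271). Both calls were lost under quantile or median scaling and without any one 8C or CX45 library. The call against 2C was also lost with a pseudocount of 0.1, no filter on low values, a replicate block or no trend. That against CX22 was also lost without CX22 replicate 2.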
